A study of Homo sapiens with 6 samples.

Results

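The S1P receptors and the germinal-centre confinement genes are 10 of the 19740 genes that could be named on the array: the receptors S1PR1, S1PR2, S1PR3, S1PR4 and S1PR5, the S1P-producing kinase SPHK1, and GNA13, P2RY8, ARHGEF1 and GPR183. Their probes were found through the RefSeq accession that the array files give for each probe, which left 11 of 34127 probes, 2 of them for GNA13 and 1 for each other gene. SU-DHL-2 is an established cell line from a diffuse large B-cell lymphoma (DLBCL), usually classed with the activated B-cell-like form of this tumour. By the study's methods, cells of this line were grown for 72 h with recombinant IL-17A at 200 pg/ml (3 samples) or without IL-17A (3 control samples). The sample labels describe the cultures as in vivo, and the samples are taken here as cell culture, as in the methods. Total RNA of each was labeled with Cy3 and hybridized to a 1-colour Whole Human Genome array. The arrays were part of a study of how stromal cells and the cytokines IL-6 and IL-17A act on DLBCL growth, and this comparison asks which transcripts differ in lymphoma cells after IL-17A. All 6 samples are of the same line and nothing in the labels says that they came from separate cultures, so the p-values measure the spread between these samples only, which may be technical. The amount of a transcript per cell and the share of cells that carry it cannot be told apart in such bulk RNA.

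Sphingosine-1-phosphate (S1P) is a lipid that is abundant in blood and lymph and scarce inside lymphoid tissue, and lymphocytes read this gradient with G protein-coupled receptors. S1PR1 signals through Gi and draws lymphocytes out of the tissue, whereas S1PR2 signals through the G protein subunit encoded by GNA13 and the exchange factor encoded by ARHGEF1, restrains migration and Akt signaling, and keeps B cells in the germinal centre. P2RY8, a receptor for a glutathione conjugate, feeds into the same GNA13 branch, and genes of this branch are recurrently mutated in lymphomas of germinal-centre origin, while GPR183 draws B cells to oxysterols at the follicle border.

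Among the 8 genes that could be tested, S1PR4 was the 1 with an adjusted p under 0.05 by limma, with a mean 1.21-fold higher after IL-17A. With slide as a block its adjusted p was 0.134 (limma). S1PR1 and SPHK1 had lower mean signals in the IL-17A samples but did not pass the adjusted test, and the confinement genes GNA13, P2RY8 and ARHGEF1 had log2 differences between -0.05 and 0.11. Of the 8 genes that could be tested, 0 met both a 1.5-fold and a p threshold of 0.05 by limma. These are the limits that the study's methods give for the arrays, with the p taken here as unadjusted, and its statistics section adds a false discovery rate of 0.05. Of the 23945 tested probes 2.18% met them, 1.01% higher and 1.17% lower, a split of 241 to 281 probes that became 150 to 422 when the arrays were scaled to their 75th percentile instead, and 186 to 426 without normalization. The number with an unadjusted p under 0.05 was 2 of 8 by limma and 2 of 8 by the methods' t-test, and 0 of 8 passed both thresholds by that test too. After Benjamini-Hochberg adjustment over the whole table, 1 of 8 genes had a p under 0.05 by either tool (1 higher and 0 lower), against 7.59% of all tested probes, 4.43% higher and 3.17% lower. That split was 1060 to 758 probes, and 21 to 25 without normalization between arrays. The median log2 difference was -0.08 over the 8 genes and 0.01 over all tested probes, and the middle 50% of all tested probes lay between -0.12 and 0.13.

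The 3 IL-17A arrays detected 23580 to 23725 probes and the control arrays 23735 to 24079. The lowest normalized signal of a probe well above background was 3.62 to 4.32, depending on the array. This is not a cutoff. S1PR3 read 4.34 on IL-17A replicate 1, where the lowest was 3.86, and was not well above background there. Judged by shared scans, slide 1 held all 3 control arrays plus the array of IL-17A replicate 1, and slide 2 held the other two IL-17A arrays, so slide as a block was added for the S1P receptor and confinement genes and for each related gene that passed the adjusted test. That fit compares IL-17A replicate 1 with the controls of its own slide. The B cell markers MS4A1, CD79A, CD79B, PAX5 and CD22 were well above background on all 6 arrays, but so were 6 of 7 T and NK cell markers, so detection alone does not tell these cell types apart. Permuting 6 arrays in groups of 3 allows no exact p smaller than 0.1 for any 1 gene.

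The regions upstream of S1PR1 and S1PR4 are shown because S1PR4 passed the adjusted test, and because of the zinc finger factor KLF2. KLF2 is known to activate S1PR1 in lymphocytes and to bind CACCC boxes, and was lower in the same samples (its values follow with the related genes). The sequences are the 250 bases before the annotated start of each gene in RefSeq on GRCh38.p14, read 5′ to 3′ on the plus strand, with every CACCC and its reverse complement GGGTG in capitals. S1PR1 lies at chr1:101236769-101237018 and S1PR4 at chr19:3178519-3178768.
S1PR1: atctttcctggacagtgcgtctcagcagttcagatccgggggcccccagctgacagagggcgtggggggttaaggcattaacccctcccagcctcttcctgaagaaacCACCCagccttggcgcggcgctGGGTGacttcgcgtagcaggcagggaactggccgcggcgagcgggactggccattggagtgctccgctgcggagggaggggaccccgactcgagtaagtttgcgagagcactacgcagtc
S1PR4: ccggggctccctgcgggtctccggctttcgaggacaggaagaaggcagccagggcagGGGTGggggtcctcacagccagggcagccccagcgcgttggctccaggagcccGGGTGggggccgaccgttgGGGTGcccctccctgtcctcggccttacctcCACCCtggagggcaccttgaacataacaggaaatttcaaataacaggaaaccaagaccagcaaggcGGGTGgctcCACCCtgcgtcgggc

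The S1PR1 window held 1 CACCC and 1 GGGTG, and the S1PR4 window 2 and 4, or 6 matches in all. At least 1 match was present in 54.7% of the 35116 RefSeq windows of this length, at least 2 in 23.1% and at least 4 in 2.91%. A GNA13 window also held 4 matches, and the log2 differences of the GNA13 probes were -0.05 and 0.03. A link between matches and differences was not tested. Over the 10 genes, 11 of 18 windows and 8 of 10 genes held a match, and the windows of S1PR3 and P2RY8 held 0. A match is a run of letters in the window, and no binding was measured here.

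The receptor S1PR4 is found mainly on blood cells and couples to Gi and G12/13 proteins. Its probe gave normalized signals of 8154.5, 8433 and 8415.6 in IL-17A samples 1 to 3 and of 6708.9, 6718.1 and 7196.5 in the controls. Every IL-17A array was above every control array, as for 21.0% of all tested probes, and the 3 IL-17A values lay close together. On the log2 scale the means were 13.02 ± 0.03 and 12.75 ± 0.06 (SD, n = 3 each). The difference was 0.28 with a standard error of 0.04, a 1.21-fold rise with a 95% interval of 1.12 to 1.31 (adjusted p = 0.0347, limma). The exact permutation test gave p = 0.1, the smallest possible here. With slide as a block the difference was 0.25 with a 95% interval of 0.08 to 0.42, but the adjusted p was 0.134 (limma), and within slide 1 alone it was 0.25 with an adjusted p of 0.218. Leaving out an array gave differences of 0.26 to 0.31, with an adjusted p under 0.05 only without control replicate 3 (adjusted p = 0.0479). In all 18 alternative settings the unadjusted p by limma or the methods' t-test was under 0.05, and in 8 of them the adjusted p was too.

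S1PR1, the egress receptor, was measured close to the detection limit. Its signals were 5.87, 4.07 and 3.13 in IL-17A samples 1 to 3 and 10.3, 6.15 and 5.57 in the controls. IL-17A replicate 1 overlapped the lower controls, and the probe was well above background on all 3 control arrays but on 1 of 3 IL-17A arrays (replicate 1). The log2 difference was -0.75 with a standard error of 0.32 and a 95% interval of -1.54 to 0.05 (adjusted p = 0.18, limma). With slide as a block the difference was -0.27 (adjusted p = 0.714, limma). Normexp background correction adds an offset of 50, which shrinks log2 differences of signals this dim. Over 17 alternative settings the difference ranged from -0.98 to -0.05, the smallest with that correction. Without control replicate 1, whose signal was the highest, it was -0.47. With a replicate block, the numbers of which are not stated to pair the samples, the difference had a standard error of 0.07. It then passed the 1.5-fold and unadjusted thresholds by limma, with an adjusted p of 0.124. S1PR1 is also strongly expressed in endothelium, and of 6 endothelial markers 5 were well above background on all 6 arrays and were tested. All 5 had lower means after IL-17A, 4 with an unadjusted p under 0.05, against 31.3% of all tested probes, and 0 after adjustment (limma). The summed signal of all 6 markers was 273.2 to 285.6 in the IL-17A samples and 308.1 to 351.5 in the controls, and it was led by PECAM1. Signals are not comparable between probes, so this sum weighs its brightest probe most. The log2 differences were -0.16 for PECAM1, -0.30 for CDH5 and VWF, -0.33 for TEK and -0.39 for CLDN5, and the sixth marker, KDR, was not well above background on any array. With slide as a block, which compares IL-17A replicate 1 with the controls, these 5 differences lay between -0.32 and -0.20. A dimmer PECAM1 probe gave -0.18 without the block but 0.45 with it, and the third PECAM1 probe -0.12 and -0.24. The methods describe SU-DHL-2 cells with or without IL-17A and name no endothelial cells in these cultures. The source of these marker signals was not tested.

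S1PR2, the confinement receptor that signals through GNA13, was clearly measured in all samples. It gave 1239.1, 1280.8 and 1381 in IL-17A samples 1 to 3 and 1421.9, 1415.7 and 1359.8 in the controls. IL-17A replicates 1 and 2 lay below all controls and replicate 3 lay among them. The log2 difference was -0.11 with a 95% interval of -0.24 to 0.03 (limma, adjusted p = 0.231), and with slide as a block it was -0.17 (adjusted p = 0.22).

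S1PR3, a receptor best known from vascular and stromal cells, was well above background on 1 of 6 arrays and could not be tested. Its signals were 4.34, 5.72 and 4.49 in IL-17A samples 1 to 3, of which replicate 2 was well above background, and 2.32, 2.15 and 2.02 in the controls, none of which was. The groups did not overlap, as was so for 39.0% of all tested probes. No change is read from these values, since 5 of the 6 signals were not well above background. Tested without a detection filter, the log2 difference of 1.16 had an adjusted p of 0.0352 by limma, a value that rests on signals that were mostly not well above background.

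S1PR5, known from natural killer cells and patrolling monocytes, was printed in 10 spots per array. The mean signals were 1.58, 1.06 and 1.15 in the IL-17A samples and 1.29, 1.08 and 1.06 in the controls, none well above background. Of the 60 S1PR5 spots on the 6 arrays, 1 was well above background, on IL-17A replicate 1 (signal 30.9). The array therefore gives no level and no difference for S1PR5.

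**Figure D1:**
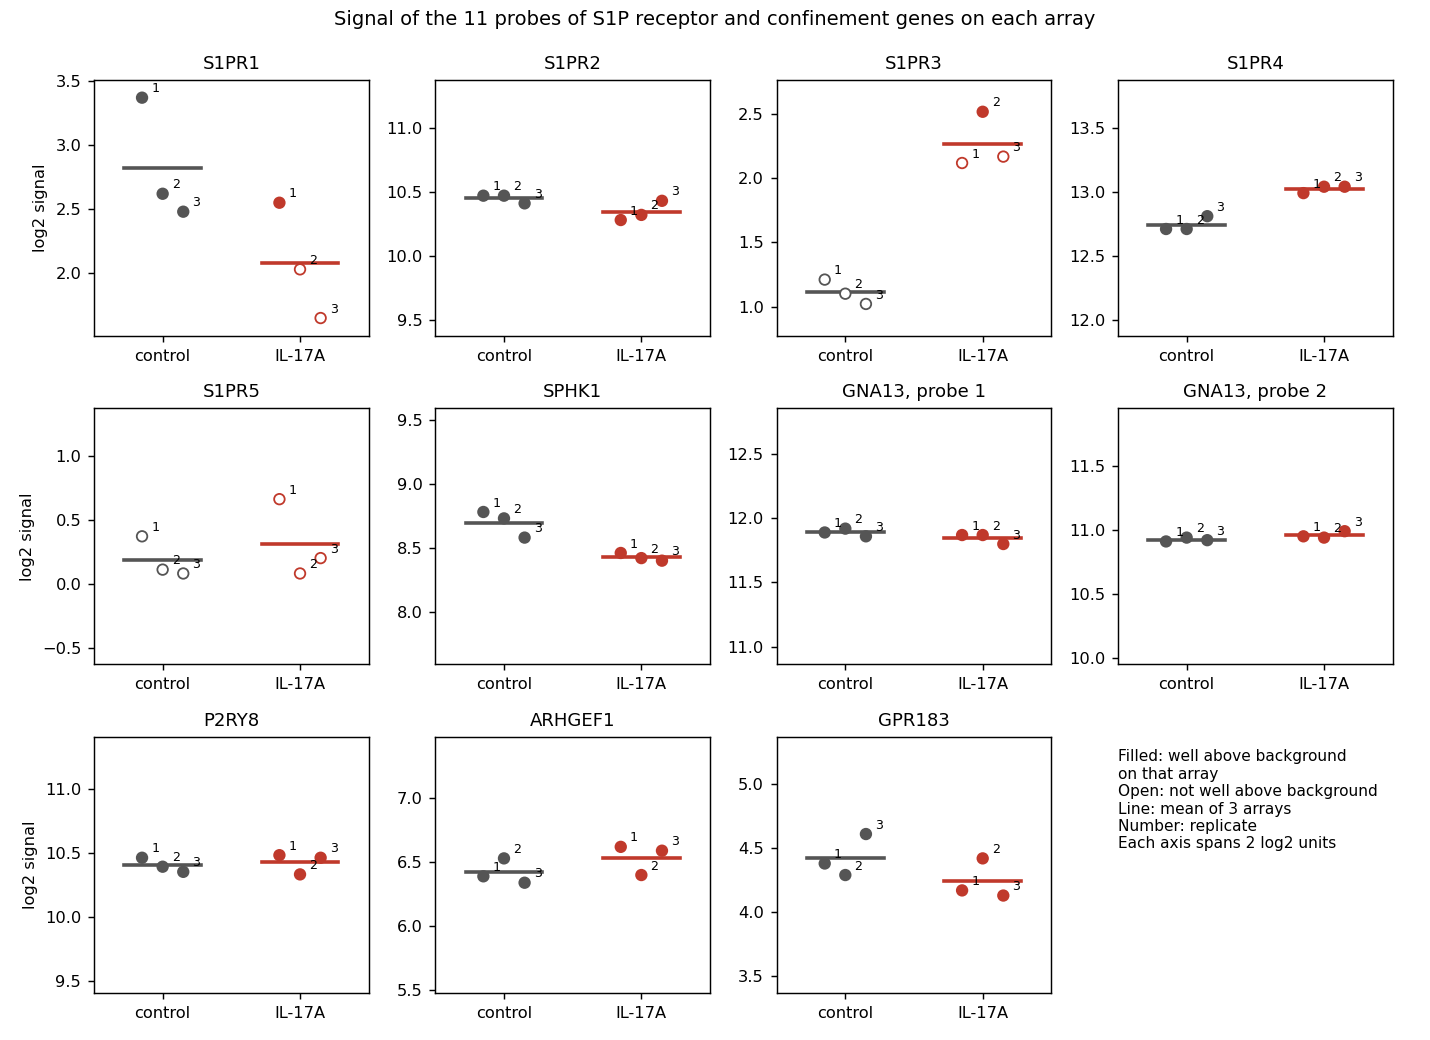
Normalized log2 signal of each of the 11 probes on each array (vertical axis, each panel spanning 2 log2 units), for control and IL-17A samples (horizontal axis); points are arrays numbered by replicate, lines are means of 3 arrays, and open points are not well above background. S1PR4 lies higher and SPHK1 lower on all 3 IL-17A arrays, S1PR1 is near the detection limit, and the GNA13, P2RY8 and ARHGEF1 points overlap between the groups.

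SPHK1, one of the kinases that make S1P, gave 352, 342.8 and 338.7 in IL-17A samples 1 to 3 and 439.1, 423.5 and 383.4 in the controls. All IL-17A arrays were below all control arrays. The log2 means were 8.43 ± 0.03 and 8.70 ± 0.10 (SD, n = 3 each), a difference of -0.27 with a standard error of 0.06 and a 95% interval of -0.42 to -0.12 (adjusted p = 0.0553, limma). The unadjusted p was under 0.05, and 31.3% of all tested probes had an unadjusted p under 0.05. The adjusted p passed in 4 of 18 alternative settings and ranged from 0.0193 to 0.303. With slide as a block the difference was -0.24 (adjusted p = 0.215, limma). Among the 8 tested genes, S1PR4 was the 1 with non-overlapping higher values and SPHK1 the 1 with non-overlapping lower values, against 21.0% and 18.0% of all tested probes.

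The confinement branch that runs from S1PR2 and P2RY8 through GNA13 and ARHGEF1 to RHOA gave small differences. The brighter GNA13 probe read 3734.7, 3740.6 and 3571 after IL-17A and 3799.6, 3879.3 and 3716.8 in the controls, a log2 difference of -0.05 (95% interval -0.14 to 0.05). The dimmer GNA13 probe read 1983.4, 1959.5 and 2029.8 against 1928.3, 1969.1 and 1942.7, a difference of 0.03 (-0.06 to 0.12). The groups overlapped at both probes, whose signs differed, and the adjusted p by limma was 0.479 and 0.567. P2RY8 read 1428.5, 1283.8 and 1412.6 after IL-17A and 1412.7, 1340 and 1304.8 in the controls, with a log2 difference of 0.02 (95% interval -0.12 to 0.17, adjusted p = 0.82 by limma). ARHGEF1 read 98, 84.4 and 96.5 against 83.8, 92.6 and 81.2, with a difference of 0.11 (-0.09 to 0.32, adjusted p = 0.38). The arrays of both groups were mixed for P2RY8 and ARHGEF1. None of these 95% intervals, from limma, reached 1.5-fold in either direction.

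GPR183, the oxysterol receptor, was dim but well above background on all 6 arrays. Its signals were 18.1, 21.4 and 17.6 after IL-17A and 20.8, 19.6 and 24.4 in the controls, overlapping between the groups. The log2 difference was -0.19 with a 95% interval of -0.47 to 0.1 (limma, adjusted p = 0.312). With slide as a block, the log2 differences of GNA13, P2RY8, ARHGEF1 and GPR183 lay between -0.25 and 0.19, and their lowest adjusted p was 0.366.

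**Figure D2:**
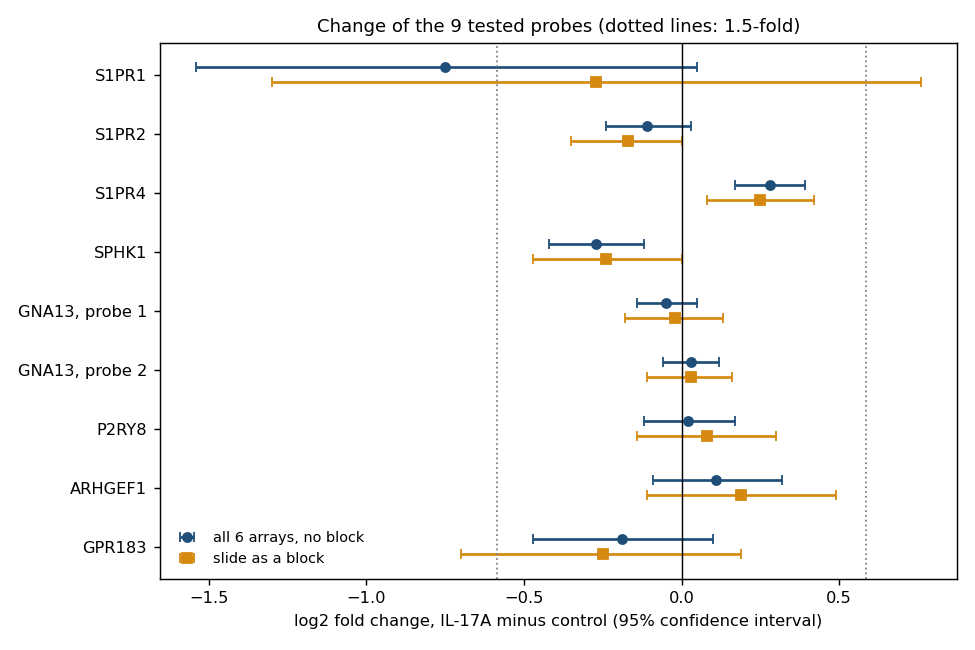
Log2 difference between IL-17A and control samples (horizontal axis) for the 9 tested probes, with 95% intervals from limma without covariates and with slide as a block. S1PR4 (0.28, and 0.25 with the block) stays above 0 in both fits, while the interval of S1PR1 spans 0 in both.

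Related genes were described in 4 lists that hold 58 genes, of which 57 had a probe and 51 could be tested. After adjustment 10 of the 51 passed by limma, 5 higher and 5 lower, against 7.59% of all tested probes, and 1 of them (PLPP3) also passed the fold threshold. The lists were chosen with earlier results of these data known. Each gene also stands by its brightest tested probe, while the 7.59% covers every tested probe. Whether the lists differ from all probes was not tested. In the counts of each list below, rose and fell mean an adjusted p under 0.05 by limma in that direction. Of all tested probes 4.43% were higher and 3.17% lower by this measure. With slide as a block these 10 genes kept their direction. That is no separate check, since they were chosen on these same arrays and the block compares IL-17A replicate 1 with the same controls. In that fit 0 of 51 passed the adjusted threshold by limma, and leaving out any array except control replicate 3 also left 0.

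Of the other genes of S1P synthesis, breakdown and export, 0 of 9 rose and 3 fell after adjustment, with a median log2 difference of -0.07. PLPP3, which removes the phosphate from S1P outside the cell, fell by 0.70 in log2 units (standard error 0.08, adjusted p = 0.0311, limma), with signals of 9.01, 10.2 and 9.88 against 14.8, 17.3 and 15.2. SPNS2, an S1P exporter, fell by 0.22 (adjusted p = 0.0373), with 104.5, 99.8 and 101.5 against 118.1, 117.1 and 121.4. SGPL1, the lyase that destroys S1P, fell by 0.22 (adjusted p = 0.0419), with 301.3, 313.1 and 305 against 364, 360.4 and 344.6. The groups did not overlap for any of these 3 genes, and 18.0% of all tested probes were likewise lower without overlap. With normexp background correction the PLPP3 difference was -0.116 with an adjusted p of 0.0564 (limma). That setting adds an offset of 50, which shrinks log2 differences of signals this dim. The effect of the offset was not separated from that of the correction. The other phosphatases tested had higher means after IL-17A, PLPP1 by 0.10, PLPP2 by 0.31 and SGPP1 by 0.08 (adjusted p = 0.302, 0.282 and 0.506), and 4 of the 9 genes were higher in all. SPHK2, the other kinase, had a difference of -0.21 with an adjusted p of 0.147.

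Of the G proteins, small GTPases and their regulators, 0 of 16 rose and 1 fell after adjustment, with a median of -0.01. GNA12, the close relative of GNA13, fell by 0.26 at its brighter probe (adjusted p = 0.0349, limma), where IL-17A arrays read 506.4, 509.9 and 505.7 and controls 620.6, 580.7 and 621.6, while its dimmer probe gave 0.14 (adjusted p = 0.39), so the direction differed between its probes. RHOA, the target of the branch, gave -0.04 (adjusted p = 0.697). RGS16, which shortens signaling by Gi-coupled receptors, gave 0.24 with an adjusted p of 0.0578. Of the subunits through which S1P receptors signal, GNAI1 and GNAQ were not well above background on any array, and GNAI2 gave 0.00 (adjusted p = 0.969).

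Of the other positioning receptors, their ligands and regulators, 4 of 15 rose and 1 fell after adjustment, with a median of 0.02. By sign alone 9 had higher and 6 lower means. CCR7, which guides cells towards the T zone, rose by 0.46 (standard error 0.08, adjusted p = 0.0362, limma), from 372.7, 372.6 and 440.3 in the controls to 550.1, 549 and 524.5. CXCR4, the receptor that draws germinal-centre B cells to the dark zone, rose by 0.30 (adjusted p = 0.0367), from 17179.3, 17996.8 and 19067.1 to 22260.5, 22534.2 and 21715.5. CXCR5, the follicle-homing receptor, rose by 0.25 (adjusted p = 0.0364), from 5054.2, 4981.8 and 4821.6 to 5836.7, 6082.3 and 5732. These 3 chemokine receptors were higher on every IL-17A array than on any control array, as were 21.0% of all tested probes. Another 18.0% of probes were lower on every IL-17A array. CCR6, the fourth chemokine receptor of the list, was lower on every IL-17A array, with 2758.3, 2677.3 and 2786.8 against 3090.8, 2881.6 and 2937.4, and a difference of -0.12 (adjusted p = 0.142).

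The 2 regulators of S1PR1 on the list moved in opposite directions. CD69, which binds S1PR1 and takes it off the cell surface, rose by 0.45 (standard error 0.05, adjusted p = 0.0286, limma), with 210.5, 227.9 and 211.8 after IL-17A and 155.7, 156.8 and 163.5 in the controls. KLF2, which activates transcription of S1PR1, fell by 0.27 (standard error 0.04, adjusted p = 0.0327), with 237.2, 243.5 and 239.5 against 282.9, 289.8 and 298.7. FOXO1, which acts upstream of KLF2, gave 0.14 (adjusted p = 0.231). The enzymes CH25H and CYP7B1, which make and convert the GPR183 ligand, and the chemokine CXCL13 were not well above background on any array. GGT5 and ABCC1, which degrade and export the P2RY8 ligand, gave 0.08 and 0.09 (adjusted p = 0.288 and 0.403).

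**Figure D3:**
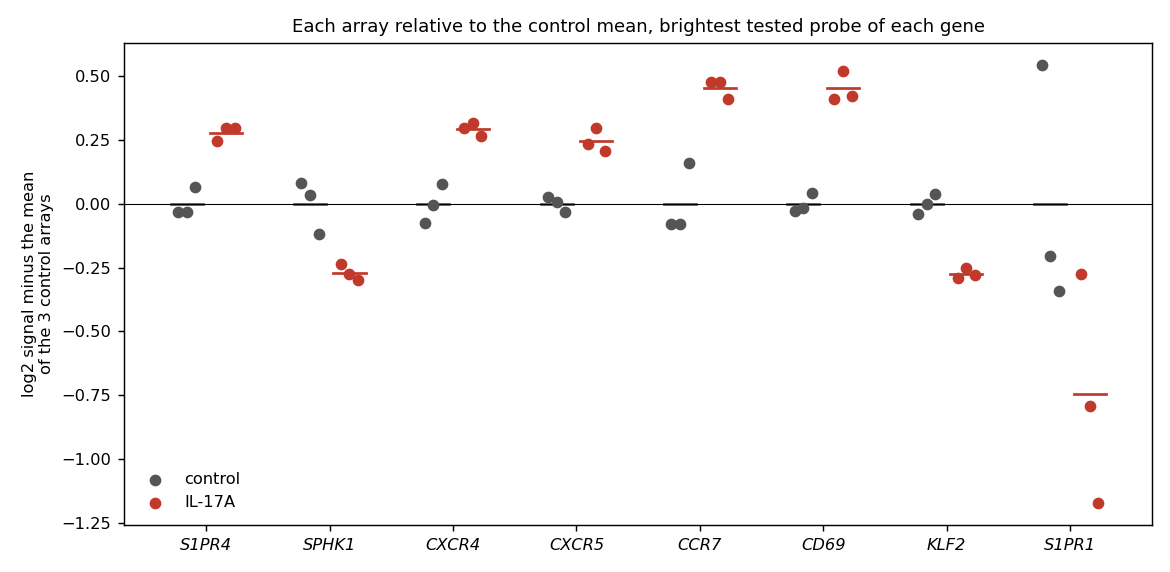
Normalized log2 signal of S1PR4, SPHK1, S1PR1 and 5 positioning genes on each array, relative to the mean of the 3 control arrays (vertical axis), for control and IL-17A samples; lines are means of 3 arrays. The IL-17A and control points do not overlap for CCR7, CD69, CXCR4, CXCR5, S1PR4, KLF2 or SPHK1, and overlap for S1PR1. Over all tested probes 39.0% do not overlap.

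Of the genes of the germinal-centre programme, 1 of 11 rose and 0 fell after adjustment, with a median of -0.01. GCSAM, a germinal-centre adaptor protein that restrains B cell motility, rose by 0.23 (adjusted p = 0.0474, limma), with 1668.6, 1700.5 and 1684.7 against 1358.7, 1467.1 and 1485, while its dimmer probe gave 0.14 (adjusted p = 0.292). BCL6, a transcriptional repressor that maintains the germinal-centre state, gave -0.16 with 3878.5, 3825.5 and 3905 against 4448.2, 4286.5 and 4267.9 (adjusted p = 0.0547, limma). MYBL1 gave -0.15 (adjusted p = 0.0636). BCL6 and MYBL1 did not overlap between the groups, as was so for 39.0% of all tested probes, and missed the adjusted threshold.

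**Figure D4:**
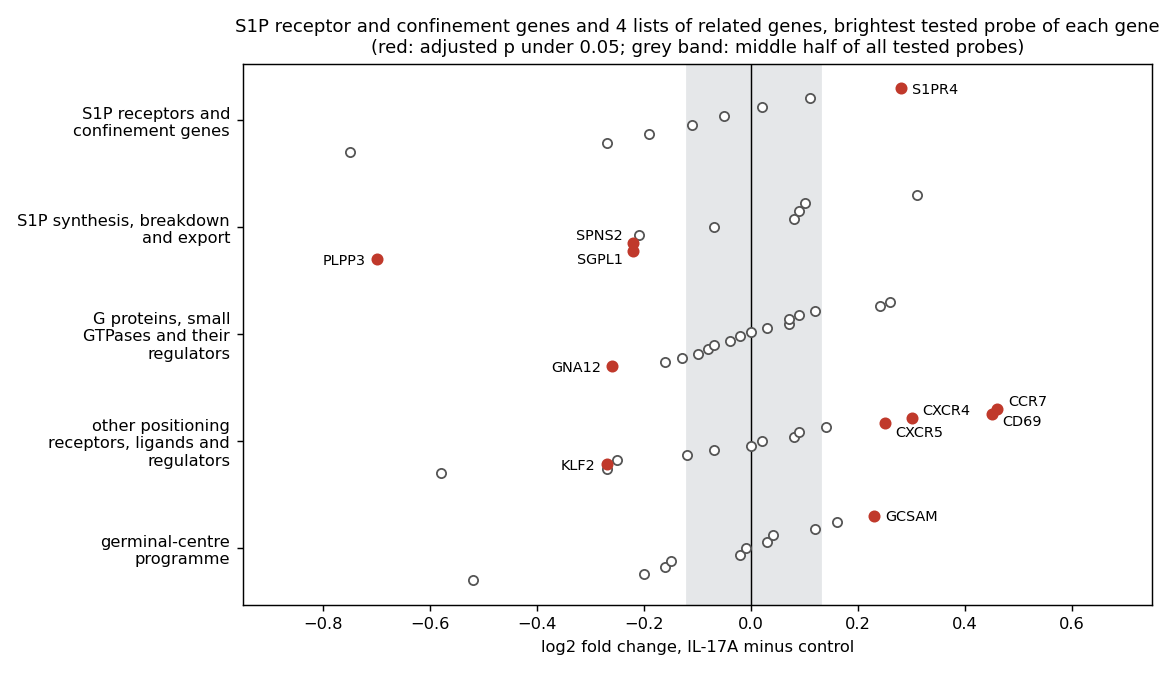
Log2 difference between IL-17A and control samples (horizontal axis) for the tested S1P receptor and confinement genes and the 4 lists of related genes, 1 point per gene at its brightest tested probe. Red points have an adjusted p under 0.05 by limma, and the grey band from -0.12 to 0.13 holds the middle 50% of all tested probes.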

How the data were processed

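RNA of 6 SU-DHL-2 samples was measured on 1-colour arrays. The authors deposited, for each array, spot intensities from Agilent Feature Extraction 11.0.1.1, from which local background had been subtracted, not yet normalized between arrays. They also deposited a series table of quantile-normalized log2 values, with array medians of 4.95, used as an alternative. Control spots and 49 values from non-uniform spots were left out. Intensities below 1 were set to 1, replicate spots were averaged as log2 values, and the arrays were quantile normalized. The 23945 probes that were positive, significant and well above background on at least 3 of 6 arrays were tested with limma 3.58.1 (R 4.3.3), two-sided and without covariates. A gene was represented by its brightest tested probe. Signals in the text are normalized linear intensities, which are not comparable between probes. The fits were checked on simulated data.

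The genes and lists were chosen with earlier results of these data known. All probes of the 10 genes are given. Of each related list, genes with an adjusted p under 0.05 are named, or otherwise that with the lowest p, and of each marker list the brightest, except that some items are not reported here. The other genes named were chosen after their values were seen. Names follow RefSeq on GRCh38.p14. The array annotation names an earlier build, and no probe coordinates were used. Alternatives were 75th percentile scaling or none, normexp with an offset of 50, the series table, other detection filters, a variance trend, a floor on dim signals, the methods' t-test, replicate or slide blocks, a fold of 2, the mean over probes, and leaving out each array.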

Additional observations from a re-analysis of the deposited data

How the results depend on the processing

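The 75th percentile scaling gave 1 gene past both thresholds and 0 with an adjusted p under 0.05, no normalization gave 1 and 0, the replicate block 1 and 0, and no detection filter 1 and 2. The gene past both thresholds was S1PR1, or S1PR3 without the filter. Normexp correction, detection on all 6 arrays and a variance trend each gave 2 with an adjusted p under 0.05 (S1PR4 and SPHK1), and slide as a block or within slide 1 gave 0. Without one array these counts were 0 to 1 (1 without IL-17A replicate 1) and 0 to 2 (2 without control replicate 3, and 0 without any other array). Among related genes, 75th percentile scaling left 6 of the 10, no normalization 1, and the replicate block, slide as a block and within slide 1 each 0; without one array the range was 0 to 4 (4 without control replicate 3). All tested probes went the same way, from 1818 with an adjusted p under 0.05 to 4 with the replicate block, 48 with slide as a block, and 2 to 890 without one array. Deviations of samples with the same number correlated at -0.09, 0 and -0.05. With 3 samples per group, and IL-17A replicates 2 and 3 on a slide of their own, these values cannot tell whether the samples were paired. The labels state no pairing.

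The sign turned for the dimmer GNA13 probe under normexp (-0.00402) and for P2RY8 without IL-17A replicate 1 (-0.00496) or control replicate 3 (-0.0032), within a range of -0.00496 to 0.0716 without one array. Of 163 values for the 10 genes, 146 counted as unchanged, 10 lost the call, 4 gained it and 3 turned sign. For tested probes, unchanged means the same direction and the same side of the adjusted threshold, which most of them never passed. For S1PR3 and S1PR5, tested only without the filter, it means a difference within the SD, so the S1PR3 call is not counted as gained. Several settings leave the difference itself as it was, so this count does not measure stability. The causes were not tested. S1PR1, S1PR3 and S1PR5 lie at or under the detection limit, and 3 arrays per group limit the precision of the rest.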

Other observations

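Of the T and NK cell markers, 6 of 7 were well above background on all arrays, led by CD3G, and the 6 differed in direction. The signals of all 7 summed to 184.1 to 198.4 after IL-17A and 174.4 to 189.1 in the controls. CD3E had a log2 difference of -0.46 (limma, adjusted p = 0.0401, and -0.36 with an adjusted p of 0.163 with slide as a block), and CD2 had 0.51 (adjusted p = 0.0539, without overlap between the groups). Monocyte markers, led by ITGAM, summed to 97.7 to 102.4 and 103.4 to 148.8, and mesenchymal markers, led by COL1A1, to 23.8 to 30.2 and 20.8 to 29.9. Of these 3 lists, CD3E was the gene with an adjusted p under 0.05. Values without overlap, as for CD2, were found for 39.0% of all tested probes.

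A dimmer probe of CXCL12, the ligand of CXCR4, gave a log2 difference of -0.43 (limma, adjusted p = 0.0326, and -0.39 with an adjusted p of 0.118 with slide as a block), while its brightest probe gave -0.07 (adjusted p = 0.51) and the third 0.02 (adjusted p = 0.976).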
